A study of Mus musculus with 3 samples.

Results

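The imprinted Dlk1-Dio3 miRNA cluster was examined in mouse plasma after exercise. Its members were taken as every mouse probe of the chip whose miRNA carries 1 of 43 numbers that belong to this cluster, whatever the letter or arm. The rule itself uses no measured value. The rule found 93 of the 1900 miRNA probes, from 47 hairpin genes. Of these, 46 genes (92 probes) lie on chromosome 12 in the RefSeq annotation. The remaining probe, miR-496b, comes from a gene on chromosome 19, so it shares a number with the cluster but not its place. For 46 hairpins the chip carries both the 5p arm and the 3p arm.

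Plasma came from male C57BL/6 mice, an inbred laboratory strain, aged 8 weeks and fasted overnight. The groups were normally caged control mice, mice after a bout of aerobic exercise and mice after a bout of resistance exercise, bled 3 h after the bout. Plasma of 3 mice, 100 µl each, was mixed into 1 pool per group, and each pool was read on 1 single-colour array of the 3D-Gene type. There were thus no replicates and no test was possible, so every difference below is between 1 pool and another, with no error that covers mice or arrays.

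The Dlk1-Dio3 domain is imprinted: Dlk1, Rtl1 and Dio3 are expressed from the paternal copy, and the noncoding RNAs Meg3, Rtl1 antisense, Rian and Mirg from the maternal copy, which also carries the miRNAs. miRNAs repress messenger RNAs through bases 2 to 8 of the mature strand, the seed. The cluster is best known from embryo, placenta and brain, and from the muscle of young animals. In plasma, fewer cells that release a miRNA and less miRNA released per cell cannot be told apart.

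The mature strands below are the 14 members with clear signal on all 3 arrays, and miR-379-5p, miR-380-5p and miR-381-5p, which are dim and differ by over 2-fold between pools in the authors' deposited table. The sequences are from RefSeq (GRCm38.p6), 5′ to 3′, with the seed in capitals. They run in gene order from miR-770-3p, at chr12:109563744-109563765, and all are on the plus strand. The last mature strand of the cluster in that order on which the chip has a probe, miR-410-3p, lies at chr12:109743764-109743784.
miR-770-3p: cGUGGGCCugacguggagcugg
miR-493-3p: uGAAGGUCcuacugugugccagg
miR-540-3p: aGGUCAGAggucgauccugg
miR-665-3p: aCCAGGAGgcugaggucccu
miR-665-5p: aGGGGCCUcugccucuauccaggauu
miR-433-5p: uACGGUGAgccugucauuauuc
miR-370-3p: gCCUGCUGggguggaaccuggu
miR-379-5p: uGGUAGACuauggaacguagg
miR-380-5p: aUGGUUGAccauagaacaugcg
miR-323-5p: aGGUGGUCcguggcgcguucgc
miR-494-3p: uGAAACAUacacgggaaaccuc
miR-667-3p: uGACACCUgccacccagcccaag
miR-667-5p: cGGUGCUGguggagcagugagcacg
miR-381-5p: aGCGAGGUugcccuuuguauauu
miR-487b-5p: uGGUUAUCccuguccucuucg
miR-668-3p: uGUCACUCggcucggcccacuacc
miR-668-5p: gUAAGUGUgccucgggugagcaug

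Few seed families were found among the members with a known sequence. RefSeq gave a mature sequence for 89 of the 93 members, with 85 distinct seeds. Among these 89, only 4 seeds were shared, each by 2 members, and these pairs are shown. Seeds of miR-376c-3p, miR-485-5p, miR-487b-3p and miR-539-3p, which had no sequence there, could not be compared. Over the whole strand miR-376b-5p and miR-376c-5p differed by 1 edit, miR-379-3p and miR-411-3p by 2, and miR-299a-3p and miR-299b-3p by 4. miR-494-5p and miR-410-5p were not this close. Without a shared seed, miR-300-3p and miR-381-3p differed by 3 edits, as did miR-376a-3p and miR-376b-3p. miR-543-3p and miR-495-3p differed by 4, as did miR-154-3p and miR-369-3p. Probes for strands within 4 edits of each other may not tell them apart, which was not tested. miR-299a-5p and miR-299b-5p, from hairpins on opposite strands of the same stretch, differ by 1 edit although their seeds are shifted by a base.
miR-379-3p: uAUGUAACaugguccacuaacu
miR-411-3p: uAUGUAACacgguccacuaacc
miR-299a-3p: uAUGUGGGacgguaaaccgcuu
miR-299b-3p: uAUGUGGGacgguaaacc
miR-494-5p: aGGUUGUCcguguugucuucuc
miR-410-5p: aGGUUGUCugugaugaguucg
miR-376b-5p: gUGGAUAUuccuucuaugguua
miR-376c-5p: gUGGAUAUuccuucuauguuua
miR-299a-5p: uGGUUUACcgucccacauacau
miR-299b-5p: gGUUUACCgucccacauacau

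Most of the cluster sat close to the background of the arrays. Blank spots averaged 92.0 (control array), 92.9 (aerobic array) and 93.3 (resistance array) in raw intensity, and detection meant a spot over 2 SD of the blanks brighter than their mean. The limits were 94.8, 99.0 and 96.9. The control array passed 60 members by that rule, the aerobic array 53 and the resistance array 54 (64.5%, 57.0% and 58.1%, against 75.3%, 71.8% and 72.2% of all miRNA probes). Detected on all 3 arrays were 49 members (52.7%), against 68.2% of all miRNA probes and 56.5% of the 803 probes with a number under 1000. Detected on no array were 29 members (31.2%), against 21.1% of all. The detection limit was not equally strict on the arrays: of the 174 spots printed without a probe, 78.7% (control), 4.02% (aerobic) and 20.1% (resistance) passed it. Above the 95th percentile of those spots on all 3 arrays were 38 members (40.9%, against 57.6% of all probes).

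At 10 SD above the blanks on all 3 arrays, 14 members remained (15.1%), against 42.3% of all probes and 29.1% of the low-numbered ones. They came from 11 hairpins. Of the summed miRNA signal above background, all members together carried 0.360% (control), 0.409% (aerobic) and 0.419% (resistance).

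The Meg3-side group, the first in gene order, held miR-770, miR-493, miR-337, miR-540 and miR-665, and 9 of its 10 probes were detected on all arrays. The group is named by gene order, since of its genes only that of miR-770 lies within Meg3 in the RefSeq annotation. Its other genes lie within the annotated span of Rtl1, as do all genes of the Rtl1 antisense group below. miR-770-3p, whose hairpin lies inside Meg3, had raw intensities of 304.9 (control), 379.1 (aerobic) and 307.9 (resistance). miR-665-3p stood at 241.0, 332.6 and 271.0 and its other arm miR-665-5p at 213.8, 257.9 and 193.2, so that both arms of this hairpin gave clear signal. miR-493-3p stood at 159.4 (control), 215.5 (aerobic) and 195.1 (resistance), while miR-493-5p stayed between 105.4 and 108.3. miR-540-3p lay between 123.2 and 131.5. Since each probe binds with its own strength, no order of amounts between miRNAs follows from these levels.

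The Rtl1 antisense group holds miR-127, miR-136, miR-431, miR-433 and miR-434, which are transcribed opposite to Rtl1 and can direct cleavage of its messenger RNA. Of its 10 probes 4 were detected on all arrays. miR-127-3p, the best known of them, was barely above the limits, at 99.1 (control), 99.5 (aerobic) and 98.9 (resistance). miR-434-3p gave 108.5, 109.3 and 107.1. miR-136-5p, at 91.4, 94.4 and 91.8, and miR-431-5p, described in muscle stem cells, at 88.9, 89.4 and 91.8, were detected nowhere. The clearest spot of the group was miR-433-5p, at 121.1 (control), 146.9 (aerobic) and 128.1 (resistance). Its other arm miR-433-3p, at 97.1, 93.5 and 93.2, was detected in control alone.

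Rian hosts miR-341 and miR-370. miR-370-3p, which has been linked to liver lipid metabolism, stood at 232.4 (control), 285.4 (aerobic) and 271.8 (resistance). miR-341-3p gave 111.6, 115.2 and 110.1. Both 5p arms were dim: miR-370-5p lay between 96.3 and 101.0, and miR-341-5p was detected on no array.

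The miR-379/miR-410 group is the long stretch that runs into Mirg, and its loss in mice disturbs the metabolic switch at birth. It holds 69 probes, of which 34 were detected on all arrays and 24 on none (miR-496b among the latter), and 7 had clear signal. Both arms of miR-667 and of miR-668 were among these. miR-667-5p gave 216.9 (control), 263.4 (aerobic) and 220.8 (resistance), and miR-668-3p gave 156.3, 189.0 and 160.6. miR-494-3p gave 117.2, 136.2 and 129.6. miR-134-5p, which limits the size of dendritic spines in neurons, was dim but detected, at 106.8, 110.0 and 111.5. The spots of miR-376a-3p and miR-376c-3p, of a family whose precursors are edited in brain, and of miR-410-3p, miR-495-3p and miR-543-3p did not pass the limit on any array.

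Between these extremes, 15 of the 93 members were detected on some arrays only, against 203 of all 1900 probes. Of these, 7 (7.53% of members, against 3.68% of all probes) were detected in control alone, the array whose limit the spots without a probe passed most often. These were miR-433-3p, miR-411-5p, miR-329-5p, miR-654-3p, miR-382-5p, miR-377-5p and miR-541-5p. miR-377-3p was detected in aerobic plasma alone, and miR-540-5p and miR-369-3p in resistance plasma alone. The plot of raw intensities in gene order shows these members among the many open symbols around the limits.

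**Figure D1:**
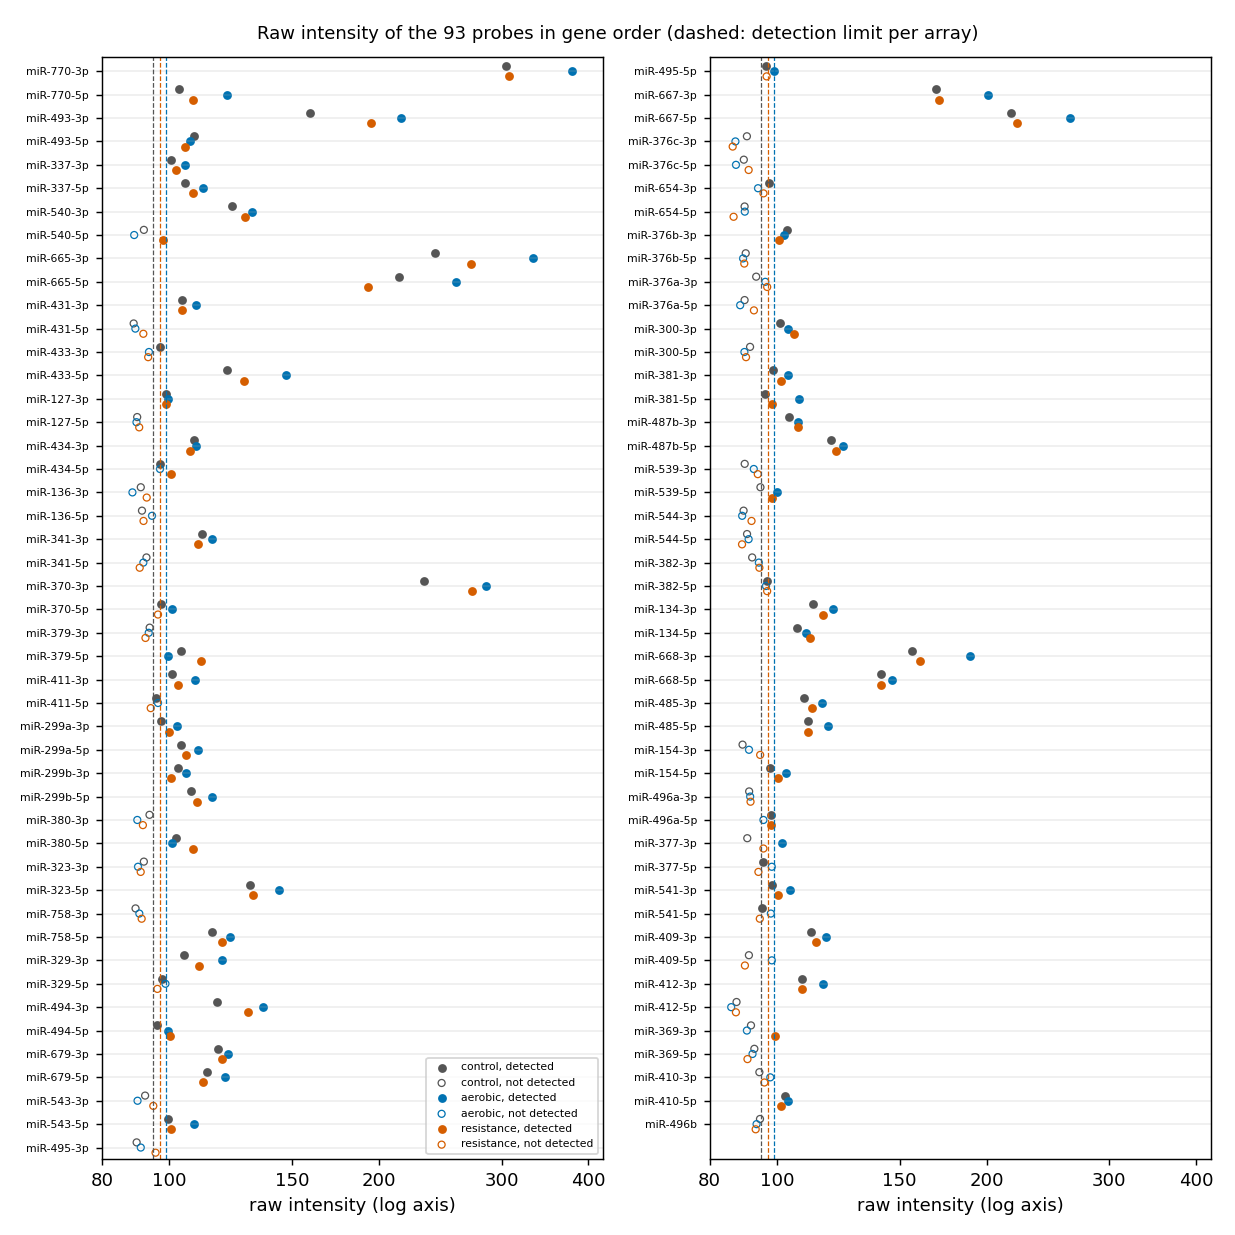
Raw intensity (log axis) of each of the 93 members in gene order, 1 point per array (control grey, aerobic blue, resistance orange), filled where detected at 2 SD of the blanks, with dashed lines at the detection limits of 94.8, 99.0 and 96.9. The brightest spot is that of miR-770-3p, at up to 379.1, and most others lie near the dashed lines.

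Members with signal were mostly rich in G and C. The 14 with clear signal had a median GC content of 62.5% (range 45.5% to 72.7%). The 27 undetected members with a known sequence had 40.9%, although miR-341-5p, with 76.2%, was among them. Of the 13 members with a GC content of 60% or more, 12 were detected on all arrays, against 1 of the 17 members under 40%. The chip as a whole ran the same way, with 94.8% of 420 miRNAs detected in the GC-rich class and 18.8% of 224 in the class under 40%.

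Within classes of GC content, the share with clear signal (10 SD on all arrays) was 61.5% of members against 83.6% of all miRNAs in the class of 60% or more, 13.8% against 42.7% from 50% to under 60%, 6.67% against 19.4% from 40% to under 50%, and 0% of the 17 members against 8.93% under 40%. These shares were not tested, since members and probes are no replicates. The Meg3-side group had a median GC content of 57.1%, Rtl1 antisense 52.3%, Rian 67.4% and the miR-379/miR-410 group 45.5%. Whether GC content sets a spot's brightness here was not tested.

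**Figure D2:**
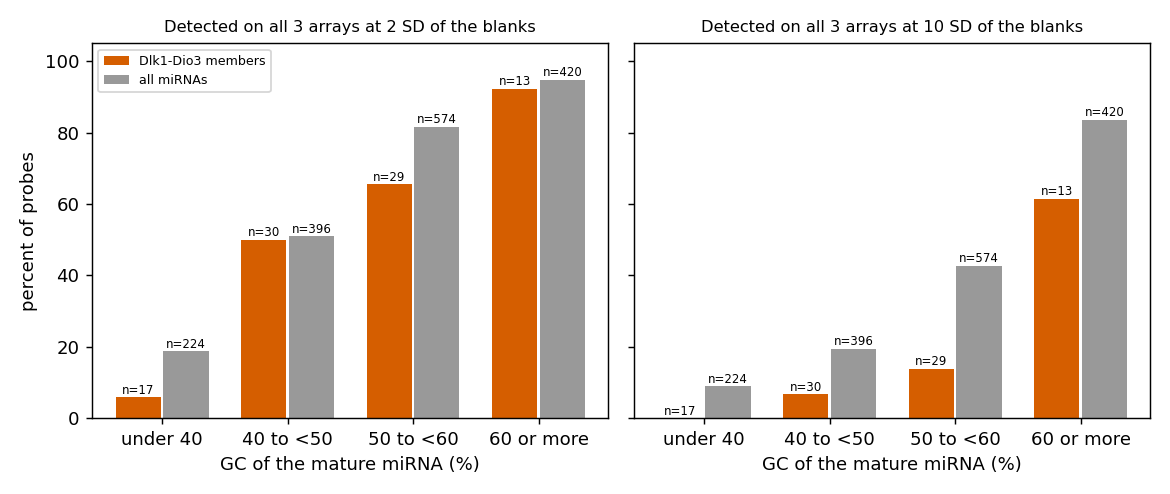
Percent of probes detected on all 3 arrays at 2 SD (left) and 10 SD (right) of the blanks, by GC content of the mature miRNA, for members (orange) and all miRNAs with a sequence (grey), with the number of probes above each bar. Both sets climb with GC content, to 92.3% and 94.8% at 2 SD and to 61.5% and 83.6% at 10 SD.

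For the comparisons, intensities were background corrected, with an offset of 50, quantile normalized over the 3 arrays and put on the log2 scale. A difference is the log2 intensity of 1 pool minus that of another for members detected on both arrays. Repeated spike-in spots had a pooled SD of 0.11, and 2 SD of a difference between single spots came to 0.32, which is called spot scatter below. The repeated spots of Negative Control 1 gave a wider limit of 0.77 and the spots without a probe one of 0.30. None of these limits covers mice, pools or arrays, and all were measured with the offset of 50 only. The offset shrinks differences between dim spots, so a doubling of a spot near the blanks can stay within spot scatter.

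Aerobic exercise was compared with caging. No member of the cluster differed by more than spot scatter. Detected on both arrays were 51 members; 9 more were detected in control only, 2 in aerobic plasma only and 31 in neither. Over all 1900 probes these counts were 1321, 110, 43 and 426. Of the 51, 28 stood above control and 23 below, the median being 0.00 and the extremes -0.18 and 0.29. Over all 1321 miRNAs compared the median was also 0.00 and 48.6% stood above 0, with 3.79% higher and 2.04% lower by more than spot scatter. Among miRNAs numbered under 1000 the median was 0.01, with 55.6% above 0. At least 2-fold higher were 0 members and at least 2-fold lower 0, against 0% and 0.227% of all. These counts rest on the offset and on the blanks as background. With an offset of 0, 6 of the 51 members were higher and 5 lower by more than 0.32, against 10.8% and 8.48% of all miRNAs. A setting chosen after seeing the data took the spots without a probe as background. The median of 49 members was then 0.38 against 0.11 over all miRNAs. By more than 0.32, 26 members were higher and 1 lower, against 35.2% and 12.4% of all miRNAs.

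miR-493-3p led, at 7.05 (control) and 7.34 (aerobic) on the normalized log2 scale, a difference of 0.29 (1.22-fold). It was followed by miR-665-3p at 0.23, miR-770-5p at 0.22, miR-433-5p at 0.20 and miR-381-5p at 0.16. miR-494-3p stood at 0.15, miR-329-3p, a brain miRNA of the miR-379/miR-410 group, at 0.14 and miR-668-3p at 0.10. The Meg3 end thus supplied the highest 3 values. Its first member, miR-770-3p, stood at 8.19 and 8.25, a difference of 0.06.

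On the lower side miR-379-5p stood at 6.14 in control and 5.96 in aerobic plasma, a difference of -0.18. miR-493-5p stood at -0.15, opposite in sign to the 3p arm of its hairpin. miR-668-5p stood at -0.13, again opposite to its 3p arm, and miR-376b-3p and miR-380-5p each at -0.12. miR-434-3p (-0.10), miR-410-5p (-0.07) and miR-127-3p (-0.07) completed the lowest 8. Of 15 hairpins with both arms compared, 9 had arms of the same sign.

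Members detected in only 1 of these pools had bounds near 1. In aerobic plasma miR-377-3p was at least 1.05-fold and miR-539-5p at least 1.04-fold higher, while miR-496a-5p and miR-329-5p were each at least 1.03-fold and miR-654-3p at least 1.02-fold lower. All bounds of members lay within spot scatter, in this and the later comparisons.

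The authors' normalized intensities, which subtract the blank mean without an offset, spread the dim members far wider. Of the 51 members, 11 were higher and 8 lower by more than 0.32 in the authors' deposited table, against 13.4% and 18.8% of all miRNAs. In the authors' deposited table the extremes were miR-381-5p, at 3.5 in control and 8.9 in aerobic plasma (2.54-fold higher), and miR-379-5p, at 10.0 and 3.9 (2.56-fold lower). Their raw intensities were 96.2 and 107.7, and 104.0 and 99.4. With blank means of 92.0 and 92.9, these folds rest on small distances from background.

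Resistance exercise was likewise compared with caging. miR-493-3p was the only member beyond spot scatter, 1.27-fold higher in resistance plasma. It stood at 7.05 in control and 7.40 in resistance plasma, a log2 difference of 0.34. It ranked 68th from the top of 1336 miRNAs. Under 8 other settings of offset, background, scaling, detection and membership, the authors' table included, this difference stood between 0.33 and 0.54. The settings of detection and membership only choose which members are compared, so they could not move this value. The difference did not reach the wider limit of 0.77. The raw intensities were 159.4 and 195.1. In aerobic against control miR-493-3p ranked 60th from the top of 1321 miRNAs. Its difference there, 0.29, stood between 0.29 and 0.56 under the same settings. Between the 2 exercise pools miR-493-3p differed by 0.06.

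As a group the cluster stood close to control. Detected on both arrays were 51 members, 9 more in control only, 3 in resistance plasma only and 30 in neither. Of all probes, 1336 were detected on both, 95 in control only and 36 in resistance plasma only. Of the 51, 33 stood above and 18 below. Their median was 0.03 and their extremes -0.18 and 0.34, against a median of -0.01 over all miRNAs and 44.2% of them above 0. Among miRNAs numbered under 1000 the median was 0.02, with 57.6% above 0. From the lowest to the highest class of GC content, 78.3%, 61.6%, 46.2% and 29.3% of all miRNAs compared stood above 0. For members these shares were 0% (1 compared), 80%, 61.9% and 58.3%. Beyond spot scatter were 1 member higher and 0 lower, against 5.61% and 3.22% of all miRNAs. At least 2-fold higher were 0 members and lower 0, against 0.225% and 0.0749%. The sign of the members' median was positive in this scaling, with scaling to the median (0.01) and without scaling (0.05), and negative in the authors' table (-0.01). With the spots without a probe as background this median was 0.33, against 0.04 over all miRNAs. There 25 of 49 members were higher and 1 lower by more than 0.32, against 28.9% and 13.2% of all miRNAs. The difference between members and all miRNAs in these medians was not tested.

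After miR-493-3p came miR-370-3p, at 7.71 and 7.96 (0.25), miR-494-3p, at 6.40 and 6.60 (0.21), and miR-665-3p, at 7.78 and 7.95 (0.17). miR-379-5p stood at 0.13, miR-433-5p and miR-380-5p each at 0.10 and miR-770-5p at 0.09. The lowest was miR-665-5p, at 7.55 in control and 7.37 in resistance plasma, a difference of -0.18, so the arms of the miR-665 hairpin had opposite signs here. Then came miR-493-5p (-0.10), miR-376b-3p (-0.08), miR-299b-3p (-0.07), miR-434-3p (-0.06), miR-341-3p (-0.06), miR-679-5p (-0.05) and miR-410-5p (-0.05). Arms had the same sign in 6 of 15 hairpins.

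Of the members detected in 1 of these pools only, miR-369-3p had the largest bound, at least 1.06-fold higher in resistance plasma, followed by miR-539-5p and miR-540-5p at 1.04-fold. miR-329-5p and miR-654-3p were at least 1.03-fold lower and miR-370-5p at least 1.02-fold. The authors' deposited table placed 8 members higher and 8 lower by more than 0.32, against 13.5% and 25.5% of all miRNAs, and gave miR-493-3p a fold of 1.42.

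Blood cell and muscle markers differed on the same arrays. The 4 red cell probes (miR-451a, miR-144-3p, miR-16-5p and the shared miR-486 probe) were all higher than control beyond spot scatter in resistance plasma (median 0.62). In aerobic plasma 3 of the 4 were, and their median was 0.37. The summed intensity of the 4 above background came to 3628 (control), 7005 (aerobic) and 6496 (resistance). The muscle probes miR-133a-3p and miR-133b-3p stood at -1.55 and -1.48 in aerobic against control, and at -0.77 and -0.81 in resistance against control. Over the 4 muscle probes compared in resistance against control the median was -0.48. The 3 muscle probes compared in resistance against aerobic had a median of 0.78. For 7 muscle probes the sums were 596.2, 165.3 and 316.4, and both miR-208 probes and miR-499-5p were detected on no array. Of 6 brain probes 4 were detected on all arrays and 0 lay beyond spot scatter. Medians of the 4 platelet and myeloid probes were 0.17 in aerobic and 0.52 in resistance against control, but these probes did not move together. In the same order miR-24-3p stood at 0.10 and 0.69, miR-21a-5p at 0.27 and 0.60, miR-126a-3p at 0.24 and 0.45, and miR-223-3p at 0.01 and -0.06. Medians of the 2 liver probes were 0.44 and 0.18. The summed intensity of the 93 cluster members was 1671, 2324 and 1795, and that of all miRNA probes 463813, 568464 and 428809. None of these sums is scaled between the arrays. The part of blood cell, liver or muscle RNA in the cluster's values was not tested.

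**Figure D3:**
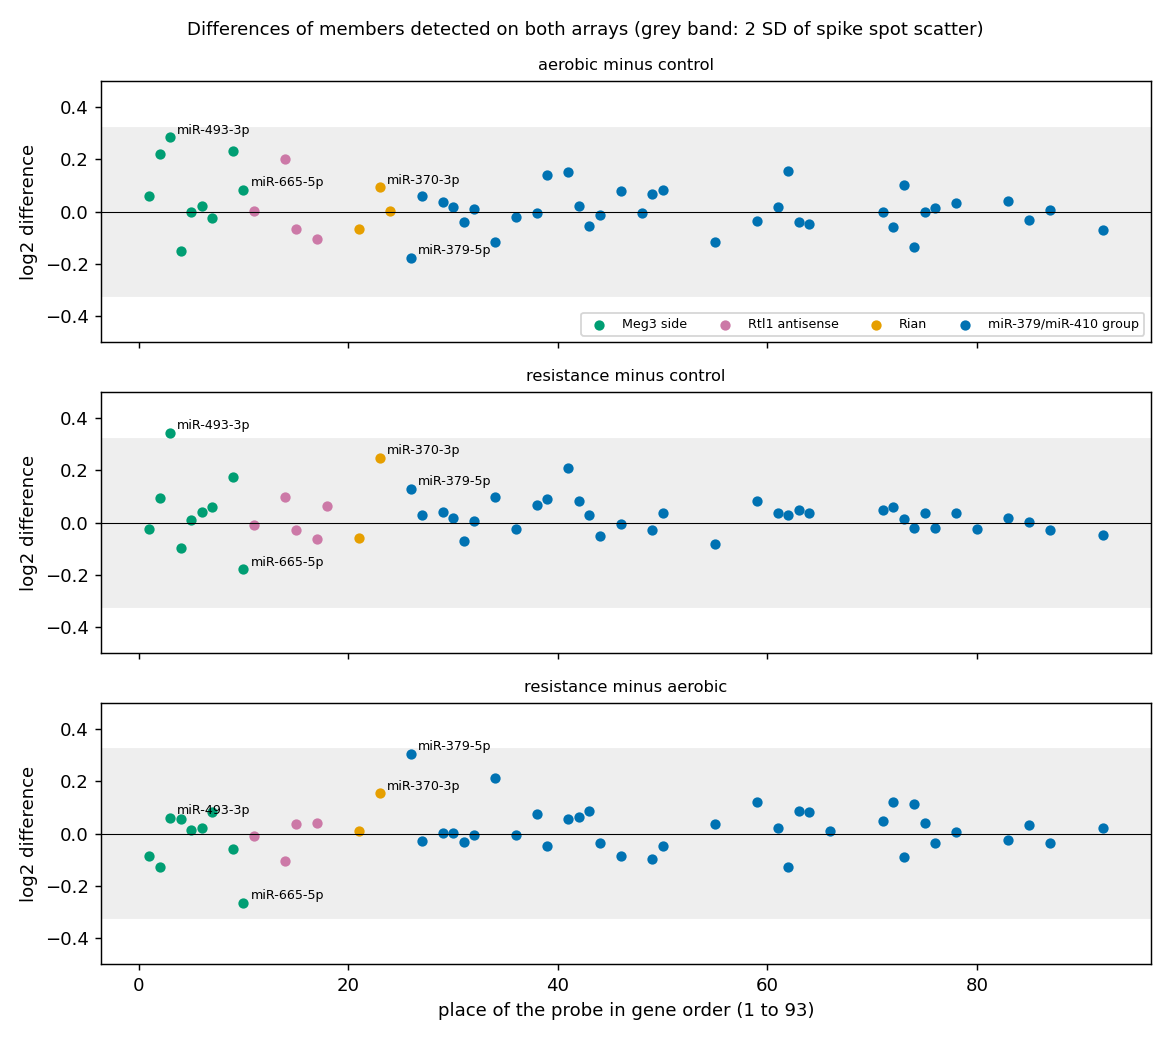
Log2 difference (y axis) of each member detected on both arrays against its place in gene order (x axis), coloured by group, for the 3 comparisons, with a grey band at 0.32 on either side of 0. The only point outside the band is miR-493-3p in resistance minus control, at 0.34.

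Resistance was also compared with aerobic exercise. No member differed by more than spot scatter, but miR-379-5p, the first miRNA of the miR-379/miR-410 group, came close. It stood at 5.96 in aerobic and 6.26 in resistance plasma, a difference of 0.31 (1.24-fold), and ranked 29th of 1307 miRNAs. That is within the limit of 0.32 from the spike-in spots and beyond the limit of 0.30 from the spots without a probe. miR-380-5p, a near neighbour, was next among the members at 5.98 and 6.20 (0.21). At the other end miR-665-5p stood at 7.63 and 7.37, a difference of -0.26.

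Detected on both arrays were 50 members, 3 more in aerobic plasma only, 4 in resistance plasma only and 36 in neither, against 1307, 57, 65 and 471 of all probes. Of the 50, 30 stood higher and 20 lower in resistance plasma, with a median of 0.01 against -0.01 for all miRNAs, of which 46.6% stood above 0. Among miRNAs numbered under 1000 the median was 0.01, with 55.8% above 0. Beyond spot scatter were 0 members in either direction, against 1.91% of all miRNAs higher and 1.3% lower. The counts at 2-fold were 0 higher and 0 lower, against 0.153% and 0%. The members' median turned to -0.11 without scaling, where that of all miRNAs was -0.19, and to -0.03 in the authors' table. With the spots without a probe as background it turned to -0.08. There 5 members were higher and 15 lower by more than 0.32, against 9.1% and 21.9% of all miRNAs.

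The other high members were miR-370-3p (0.15), miR-300-3p (0.12), miR-134-5p (0.12), miR-668-5p (0.11), miR-487b-3p (0.09) and miR-679-3p (0.08). The other low ones were miR-381-5p (-0.13), miR-770-5p (-0.13), miR-433-5p (-0.10), miR-667-3p (-0.10), miR-668-3p (-0.09), miR-770-3p (-0.09) and miR-543-5p (-0.09). In 10 of 14 hairpins the arms had the same sign. The bounds were led by miR-434-5p, at least 1.06-fold higher in resistance plasma, and miR-369-3p at 1.04-fold, with miR-377-3p and miR-370-5p at least 1.03-fold lower.

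The authors' deposited table placed 6 members higher and 7 lower by more than 0.32, against 11.8% and 16.2% of all miRNAs. In the authors' deposited table miR-379-5p was 3.59-fold and miR-380-5p 2.47-fold higher after resistance than after aerobic exercise, and miR-381-5p was 2.28-fold lower. The intensities there were 3.9 and 14.0 for miR-379-5p and 4.7 and 11.6 for miR-380-5p. The raw intensity of miR-379-5p was 99.4 in aerobic plasma, just above the limit of 99.0, and 111.1 in resistance plasma. For miR-380-5p it was 100.7 and 108.0. Over the 7 of those settings that gave a value, the log2 difference of miR-379-5p ran from 0.19 to 1.95. That of miR-380-5p ran from 0.11 to 1.41, and both were higher in resistance plasma in each setting. The settings of detection and membership among these could not move the values. At 10 SD neither was compared.

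**Figure D4:**
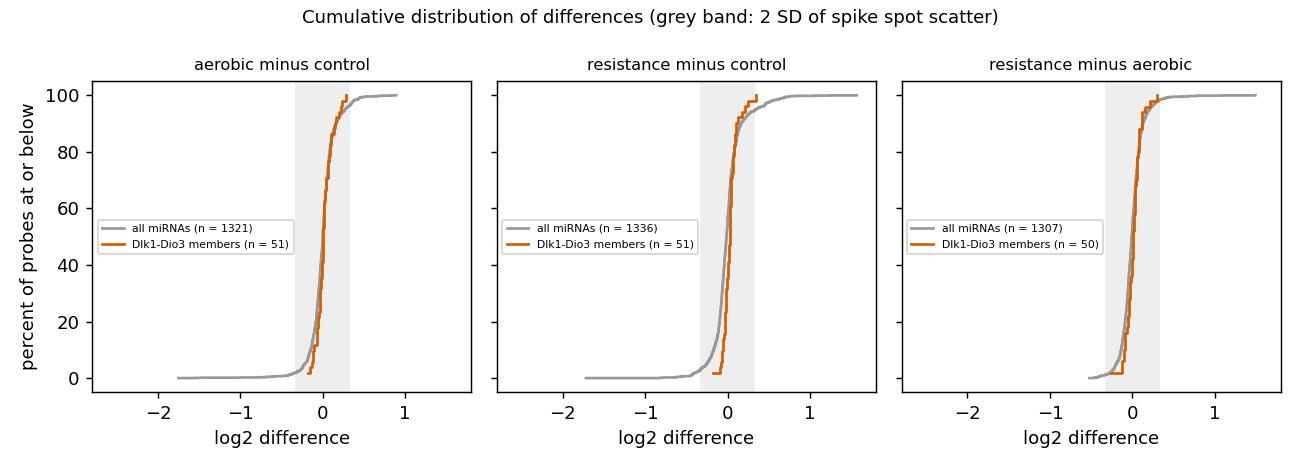
Cumulative percent of probes (y axis) at or below each log2 difference (x axis) for members (orange) and all miRNAs compared (grey) in the 3 comparisons, with the band of spot scatter at 0.32. The curves of the members rise steeply around medians of 0.00, 0.03 and 0.01. Those of all miRNAs, which hold many more probes, have longer ends. They run from -1.75 to 0.89 in aerobic and from -1.72 to 1.57 in resistance against control.

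By place in the cluster, medians in aerobic against control were 0.06 for 9 Meg3-side members compared, -0.03 for 4 of Rtl1 antisense, 0.00 for 3 of Rian and 0.00 for 35 of the miR-379/miR-410 group. In resistance against control they were 0.04, -0.01, 0.09 and 0.03 in the same order, over 9, 5, 2 and 35 members. In resistance against aerobic they were 0.01, 0.01, 0.08 and 0.01. All these medians lay within spot scatter. In resistance against control the 3p arms and the 5p arms both had a median of 0.03.

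Further miRNAs of the locus whose numbers the rule leaves out (miR-673, miR-666, miR-1193, miR-1197, miR-3070, miR-3071, miR-3072, miR-453 and miR-882) had 17 probes, 9 of them detected on all arrays. Of the 9, 11 and 9 compared, 0 lay beyond spot scatter, and their medians were -0.06, -0.04 and -0.05. Not all of the locus was dim: miR-3072-5p had raw intensities of 2298.8 (control), 3070.9 (aerobic) and 2243.0 (resistance), brighter than any member. The 17 probes carried 0.569% (control), 0.619% (aerobic) and 0.592% (resistance) of the summed miRNA signal above background. For the 93 members these shares were 0.360%, 0.409% and 0.419%. The 64 probes of the Sfmbt2-type repeats, an imprinted miRNA cluster of another chromosome (miR-297, miR-466, miR-467 and miR-669), had medians of 0.01, 0.00 and -0.01, with 0 beyond spot scatter. The 4 Igf2/H19 probes had medians of -0.03, -0.12 and -0.15. Among them miR-483-3p was lower by more than spot scatter in resistance plasma, at -0.45 against control and -0.44 against aerobic plasma. A difference between the Dlk1-Dio3 members and these lists was not tested.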

How the data were processed

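Each array's deposited file lists 3200 spots by linear raw intensity, per the file headers, with each miRNA spotted once. They also hold the authors' background-subtracted and globally normalized intensity. The series table repeats the latter to within 0.05 on a linear scale, with a median of 25 per array and no centring per miRNA. The submitters' design text calls the chip human, although the probes analysed carry mouse names. The extraction text speaks of cells, whereas the other labels name plasma.

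The background was the mean of 896 blank spots, trimmed by 5% at each end. Detection by that mean plus 2 SD matched the authors' empty cells with 0 differences. Raw intensities were corrected with normexp (offset 50) in limma 3.58.1 under R 4.3.3, and 1900 miRNA probes were quantile normalized as log2 values. These steps were checked on simulated data, where changes were planted only in probes well above the blanks. The check thus does not cover changes of dim spots, such as most members. With 1 array per group no p-value is given, and the number of arrays limits the precision. Members and gene lists were chosen with earlier results of these data known. Named members were the 8 highest and 8 lowest per comparison, the brightest 12, the 3 largest bounds each way, the other arms of hairpins named for a difference and a list of well-known members. A few others were named after their values were seen. Alternatives were the offset, blank subtraction, scaling, the authors' table, the detection limit and leaving out members off chromosome 12. Marker lists were for muscle, red cells, brain, platelets and myeloid cells, and liver.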

Additional observations from a re-analysis of the deposited data

How the results depend on the processing

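No paired analysis was possible because each group has 1 array. Under the settings listed in the methods other than no scaling, the cluster's median lay from -0.02 to 0.08 in aerobic minus control, from -0.01 to 0.08 in resistance minus control and from -0.03 to 0.05 in resistance minus aerobic. Without scaling it was 0.17, 0.05 and -0.11, and that of all miRNAs 0.20, 0.01 and -0.19. Counts of members that differed by more than 0.32 depended on how dim spots were treated. Spot scatter was not measured for an offset of 0, blank subtraction or the authors' values, so 0.32 is only a fixed cut-off there. For aerobic minus control, an offset of 0 gave 6 higher and 5 lower (all miRNAs 10.8% and 8.48%), blank subtraction 10 and 7 (16.2% and 13.9%), the authors' values 11 and 8 (13.4% and 18.8%), scaling to the median 2 higher (6.81%) and no scaling 11 higher (18.6%). In resistance minus control they were 5 higher with an offset of 0 (12.4%), 10 higher and 4 lower with blank subtraction (16.4% and 17.9%), and 8 and 8 in the authors' table (13.5% and 25.5%). The counts in resistance minus aerobic were 4 and 4 (8.95% and 7.80%), 7 and 4 (12.5% and 14.8%), and 6 and 7 (11.8% and 16.2%) in the same order, 1 and 1 with scaling to the median (0.689% and 6.12%) and 3 lower without scaling (18.7%). At 2-fold or more, blank subtraction and the authors' table each gave 1 higher and 1 lower in aerobic minus control, and 2 higher and 1 lower in resistance minus aerobic, where an offset of 0 gave 1 higher; the shares of all miRNAs were from 0.383% to 1.45% for these counts. Leaving out miR-496b altered no value. At 10 SD the control array passed 27 members, the aerobic array 14 and the resistance array 20, against 52.1%, 42.5% and 46.6% of all miRNAs.

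An alternative chosen after seeing the data took the spots printed without a probe as background, which were brighter than the blanks in control (median 96.3) and dimmer in aerobic plasma (91.0). The members' median then stood at 0.38 for aerobic and 0.33 for resistance minus control, against 0.11 and 0.04 over all miRNAs. By more than 0.32, 26 were higher and 1 lower (all miRNAs 35.2% and 12.4%), and 25 and 1 (28.9% and 13.2%). At least 2-fold higher were 12 and 9 (14.2% and 11.4%). For resistance minus aerobic 5 were higher and 15 lower (9.1% and 21.9%), with 1 in each direction at 2-fold (0.459% and 4.44%). Single dim members moved far: miR-495-5p went from -0.01 to 5.79 and miR-370-5p from 0.00 to 2.87 in aerobic minus control. Detection above those spots, also added later, held for 38 members (control), 54 (aerobic) and 48 (resistance), against 58%, 73.4% and 64.2% of all miRNAs, so that the control array had the fewest in place of the most. The cause of these shifts was not tested. The small distance of most members from background limits what these arrays can show.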
